A study of Bos taurus with 4 samples.

Results

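The ubiquitin conjugating enzymes and the deubiquitinases were followed in spermatozoa of Murrah buffalo bulls of high and low fertility. The members were the non-control probes of the array whose gene name was UBE2 and a letter, USP and a number, UCHL and a number, or OTU, which gave 206 of 51282 probes and 92 of 32429 gene names. The UBE2 class held 69 probes of 34 genes, the USP class 110 probes of 46 genes, the UCHL class 9 probes of 3 genes and the OTU class 18 probes of 9 genes. All 4 samples were sperm RNA of breeding bulls, and the groups were 2 high-fertile and 2 low-fertile pools, with RNA of 2 bulls in each pool. The spermatozoa had been selected on Percoll, and bulls had been placed in the groups by how far their conception rate lay above or below the mean. Ages were not given in the sources used here. The pools limit what the groups can stand for, because the values of single bulls were merged and p-values measure the spread between pools. RNA was copied from an oligo-dT primer, labelled with 1 dye and hybridised to 60-base probes designed on the cattle genome, so that a buffalo transcript was read through a cattle sequence. The 4 arrays lay on 1 slide, each fertility group in a slide row of its own, so that slide position and fertility cannot be told apart.

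Ubiquitin is a small protein that marks other proteins for degradation, sorting or signalling. An activating enzyme (E1) hands it to a conjugating enzyme (E2, the UBE2 genes), and a ligase (E3) helps to pass it from the E2 to the target. Deubiquitinases, among them the USP, UCHL and OTU families, cut ubiquitin off again or trim its chains. In the male germ line the system is known for the turnover of histones during spermatid elongation, for the removal of sperm mitochondria after fertilisation and for the marking of defective spermatozoa in the epididymis. The name rule also took in USP6NL, which encodes a GTPase activating protein and not a peptidase, and UBE2CBP, whose current symbol is UBE3D and which encodes a ligase. Neither had a tested probe.

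Several results below turn on probes that lie in different stretches of one gene, and those probes are therefore shown first. Each is printed 5′ to 3′ as the files give it, with the place in the cattle build HGSC Btau_3.1 that the files give. UBE2D3 is shown by a pair of neighbouring probes that were read differently from the probes further along. USP39 and USP11 are shown by probes that passed the threshold in opposite directions, with the uncalled USP11 probe at 1525 beside them. USP50 and USP20 gave the largest rise and the largest fall among members measured on all 4 arrays. UCHL3 gave the one called probe of the UCHL class. A probe whose place spans more than 60 bases crosses an exon junction, as did 36 of the 206 member probes.
UBE2D3, transcript position 333, chr6:23642766-23648678, plus strand: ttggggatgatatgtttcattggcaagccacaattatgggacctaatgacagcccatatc
UBE2D3, transcript position 504, chr6:23649755-23652070, plus strand: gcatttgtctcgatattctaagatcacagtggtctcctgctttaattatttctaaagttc
USP39, transcript position 314, chr11:51146254-51149619, minus strand: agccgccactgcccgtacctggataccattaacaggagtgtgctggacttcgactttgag
USP39, transcript position 1323, chr11:51126603-51126662, minus strand: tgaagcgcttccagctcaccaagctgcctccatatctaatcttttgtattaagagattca
USP11, transcript position 1525, chrX:56575372-56575431, minus strand: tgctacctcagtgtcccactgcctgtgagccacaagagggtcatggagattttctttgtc
USP11, transcript position 2045, chrX:56572916-56573193, minus strand: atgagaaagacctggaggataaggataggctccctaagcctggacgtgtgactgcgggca
USP11, transcript position 2751, chrX:56570575-56570634, minus strand: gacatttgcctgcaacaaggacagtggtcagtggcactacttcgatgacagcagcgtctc
USP50, transcript position 716, chr10:61181944-61182003, plus strand: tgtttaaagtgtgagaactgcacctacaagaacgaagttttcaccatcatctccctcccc
USP20, transcript position 227, chr11:103938147-103943170, plus strand: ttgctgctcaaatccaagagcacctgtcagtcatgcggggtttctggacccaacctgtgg
UCHL3, transcript position 658, chr12:51024001-51024060, plus strand: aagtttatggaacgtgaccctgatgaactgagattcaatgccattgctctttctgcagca

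Most of these enzymes gave weak signals. No array showed 99 of the 206 member probes well above background, the mark that the scanner software sets, and 77 probes (37.4%) carried the mark on both arrays of at least 1 group and were tested, against 41% of all probes. On all 4 arrays 30 members (14.6%) were well above background, against 24.5% of all probes. Single arrays marked 86 members in high-fertile pool 1, 85 in high-fertile pool 2, 92 in low-fertile pool 1, but 33 in low-fertile pool 2. Low-fertile pool 2 thus stood apart, as it did over all probes, where 25.4% were well above background, against 45.3% or more on each of the others. As a result 44 of the 77 tested members entered by their marks in the high-fertile arrays only and 3 by those in the low-fertile arrays only, and for the first kind the filter itself favoured lower values in the low-fertile pools. Counts are therefore given for all tested members and again for the 30 measured on all 4 arrays.

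Values are log2 processed signals minus the 75th percentile of the array, called normalized log2 signals, and a log2 fold change is the low-fertile mean minus the high-fertile mean. By limma's test, adjusted by Benjamini-Hochberg over all 21033 tested probes and read at 0.05, 21 member probes were lower and 7 were higher in low-fertile spermatozoa. The lower members were 27.3% of those tested, where 17.6% of all tested probes were called lower, and the higher members were 9.09%, where 9.22% of all were called higher. Among the 30 members measured on all 4 arrays, 4 were lower and 5 were higher, with 9.89% and 13.2% of all such probes called. Of the 44 that entered through the high-fertile pair alone, 17 were lower and 1 was higher, beside 30.1% and 1.38% of all such probes. At each of those 18 probes low-fertile pool 2 was not well above background, so the value of that pool, and with it the size of the fold change, is one of a dim signal there. The median log2 fold change was -0.25 over the tested members and -0.0047 over all tested probes, and it was 0.14 over the members on all 4 arrays, close to the 0.15 of all such probes. The groups were apart with the low-fertile pools below for 37 tested members and above for 20, and they overlapped for 20. Over all tested probes 35.5% lay wholly below and 33.6% wholly above. On all 4 arrays 9 members lay wholly below and 12 wholly above, beside 24.7% and 46% of all such probes. By the brightest probe of each gene, 15 of 49 tested genes were lower and 5 were higher, against 16.3% and 9.6% of 16549 genes. The split of the called members was sensitive to the scale. Lower probes made up 75% of them, 91.9% when arrays were scaled to the spike-in controls, 54.5% in a fit of the probes on all 4 arrays alone and 47.8% after the trend with probe GC content was removed. Over all probes the same settings gave 65.6%, 92.1%, 37.5% and 50.3%, which moved in the same directions. Scaling to the spike-in controls moved the median of all tested probes to -0.38, so changes are stated relative to the 75th percentile. With 2 pools a group, the smallest two-sided p that an exact permutation test allows is 0.333. In a pooled sample, fewer cells carrying a transcript and less of it per cell cannot be told apart.

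**Figure D1:**
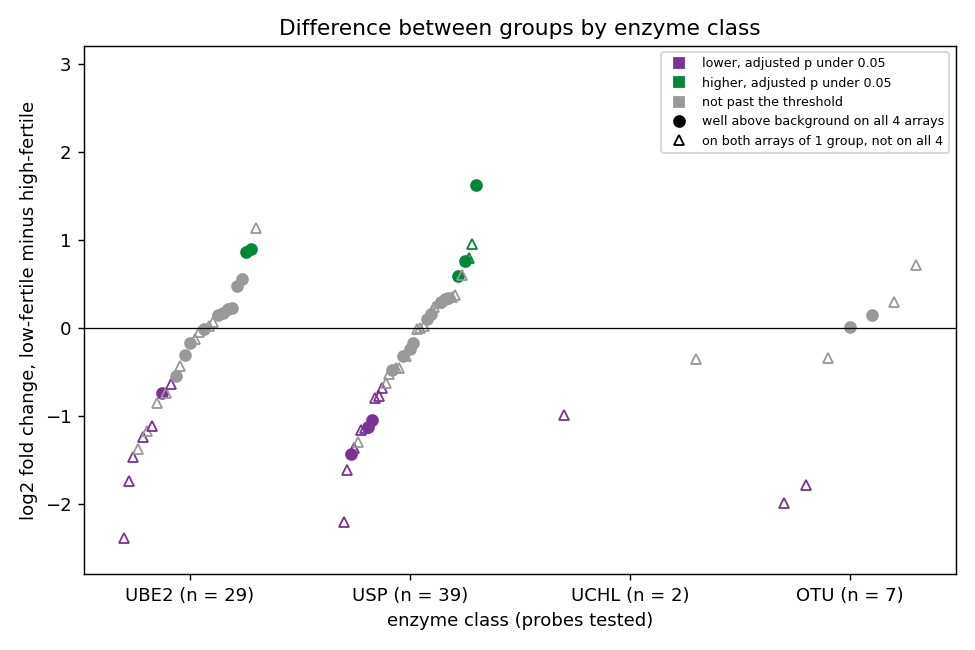
Log2 fold change (low-fertile minus high-fertile) of the 77 tested probes by enzyme class, one symbol per probe, sorted within a class. Filled circles are probes marked well above background on all 4 arrays, open triangles the other tested probes; the probes past the threshold on the lower side are mostly triangles, while 5 of the 7 on the higher side are circles.

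The E2 class showed 7 lower and 2 higher probes among 29 tested, and 20 did not pass the threshold. On all 4 arrays 13 were measured, of which 1 was lower and 2 were higher. UBE2S, which builds K11-linked chains with the anaphase-promoting complex, gave normalized log2 signals of 3.21 and 3.18 in high-fertile spermatozoa and 3.97 and 4.22 in low-fertile spermatozoa. It rose by 0.89 (standard error 0.16, adjusted p = 0.0132, limma). UBE2E3, an E2 that carries an N-terminal extension ahead of its catalytic core, gave 1.01 and 0.89 against 1.72 and 1.91 and rose by 0.87 (standard error 0.15, adjusted p = 0.0136, limma). At these probes of both genes the groups were clear of each other by more than the pools of a group differed. Without high-fertile pool 1 or without high-fertile pool 2 neither passed, with adjusted p of 0.0615 and 0.0689 for UBE2S and 0.0542 and 0.0766 for UBE2E3, while both folds stayed above 0.77. The rise of UBE2E3 was read at position 18 only, from a probe of 66.7% GC. Its probes at 513, 563 and 1286 were not tested, and of these only 513 was marked, on low-fertile pool 1 alone. The rise of UBE2S was read at 961 only, since its probe at 480 was marked on no array. UBE2C, the partner of UBE2S that starts chains on substrates of the same complex, was not tested. Its brighter probe was well above background on 1 array of each group, at -1.62 and -1.04 against 0.00 and -0.87.

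The conjugating enzymes of NEDD8, a ubiquitin-like modifier that activates cullin ligases, gave unlike readings. UBE2F, an E2 for NEDD8, fell at position 1255 (adjusted p = 0.0374, limma). Neither low-fertile array was well above background there, and the high-fertile mean was 2.17-fold higher. For such folds each dim array took the probe's own value or the dimmest signal marked well above background there, whichever was higher. They rest on unmarked signals and are not minima. The UBE2F call did not hold under quantile scaling (adjusted p = 0.0768, limma). Nor did it hold with the percentile taken over probes marked on all arrays (0.0551). That call was lost without high-fertile pool 1 (0.116), low-fertile pool 1 (0.110) or low-fertile pool 2 (0.0563). UBE2M, the other NEDD8 conjugase, gave 1.14 and 1.00 against 1.23 and 1.36 and did not pass (0.23, adjusted p = 0.301).

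The UBE2D enzymes, which serve a wide range of ligases, were read by UBE2D3 above all. Its brightest probe, the one printed above at position 504, gave 1.75 and 1.86 in high-fertile spermatozoa and 1.09 and 1.42 in low-fertile spermatozoa (log2 fold change -0.55, standard error 0.17, adjusted p = 0.0687), and the probe at 333 gave 0.42 and 0.26 against 0.06 and -0.25 (-0.44, adjusted p = 0.121). Neither passed, though the probe at 504 did under spike-in scaling (0.0118), normexp (0.00874), an intensity trend (0.0309) and a fit of the probes on all 4 arrays (0.0319). At position 551, which shares bases with the probe at 504, the signals were 1.55 and 1.36 against 0.13 and -0.15, and fell by 1.46 (standard error 0.17, adjusted p = 0.00446, limma). At position 1420 they were 0.65 and 0.65 against -1.10 and -2.39, and the mean fell by 2.39 (standard error 0.41, adjusted p = 0.0122). Low-fertile pool 2 was not well above background at 551 or 1420, and its value at 1420 lay near the dimmest signal so marked on that array, so that the size there is loose and ran from -3.04 to -1.75 with single pools left out. All 4 probes had the low-fertile pools below. The call at 1420 was lost without high-fertile pool 1 (0.0511) or pool 2 (0.0528). UBE2D2 gave -0.34 and 0.01 against -0.76 and -0.86, just past the threshold (fell by 0.64, adjusted p = 0.0489), and missed it without any one of the pools, with adjusted p of 0.0646 and 0.205 without the high-fertile and 0.0872 and 0.137 without the low-fertile pools. The UBE2D2 call was also lost with the deposited table (adjusted p = 0.0514, limma), quantile scaling (0.0562), an intensity trend (0.0598) and the replicate block (0.0623). It was lost too with the percentile taken over probes marked on all arrays (0.0810). No array marked UBE2D1 as above background. The one tested probe of UBE2D4, marked on no low-fertile array, did not pass (adjusted p = 0.0602).

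UBE2L3 (UBCH7), which works with HECT and RBR ligases such as parkin, also gave unlike readings. At position 622 its signals were 0.75 and 0.78 in high-fertile and -0.44 and -0.51 in low-fertile spermatozoa, and fell by 1.24 (standard error 0.14, adjusted p = 0.00414, limma). At position 979 they were -0.22 and -0.20 against -0.07 and 0.07, a difference of 0.21 that did not pass (adjusted p = 0.324). Low-fertile pool 2 was not well above background at 622, and all 4 arrays were at 979. UBE2N and UBE2V1 form the E2 pair for K63-linked chains. UBE2N gave 0.67 and 0.71 against 0.36 and 0.39 and did not pass (-0.31, adjusted p = 0.152), but it passed as lower under spike-in scaling (-0.68, 0.0191) and as higher after removal of the GC trend (0.61, 0.0329). UBE2V1, the partner without an active-site cysteine, gave -1.36 and -0.80 against -0.51 and 0.60 (1.13, standard error 0.40, adjusted p = 0.0898). It passed without low-fertile pool 1 (0.0169), with the replicate block (0.0123) and after removal of the GC trend (1.94, 0.0316). UBE2V2, the related partner, carried the mark on no array. The bright UBE2G1, an E2 of endoplasmic reticulum degradation, gave 1.73 and 1.44 against 1.23 and 1.59, with overlapping groups (-0.17, adjusted p = 0.543).

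UBE2A and UBE2B, the RAD6 pair that marks histones, have a known part in spermatogenesis, and Ube2b loss makes male mice infertile. Neither could be tested. No array showed UBE2B above background at either probe, and UBE2A was well above background in low-fertile pool 1 alone, at -0.05, with -2.06 and -1.69 in high-fertile spermatozoa and -1.03 in low-fertile pool 2. Its observed low-fertile mean was 2.52-fold higher, resting on 1 marked array and on the unmarked value of low-fertile pool 2. UBE2R2 (CDC34B), an E2 of the SCF ligases, had the same form, with an observed low-fertile mean 2.28-fold higher and 1 marked array. UBE2J1, a membrane-bound E2 needed for spermatid shaping in mice, and UBE2K, which extends K48-linked chains, were not well above background on any array. UBE2CBP was marked in low-fertile pool 1 alone, at 0.04, and lay at -2.28 in low-fertile pool 2 and at -3.02 and -3.17 in the high-fertile pools.

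**Figure D2:**
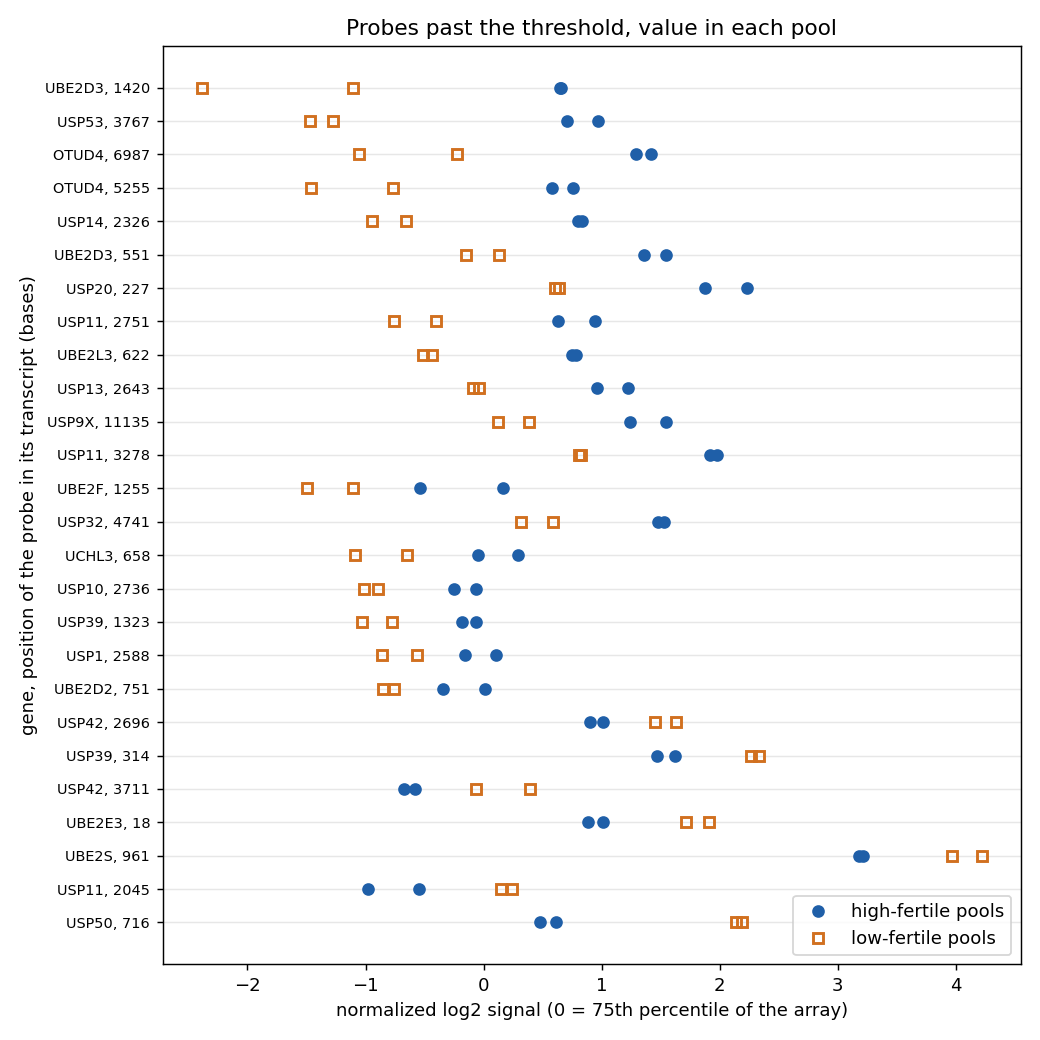
Normalized log2 signal (horizontal axis, 0 being the 75th percentile of an array) of member probes past the threshold, with circles for the high-fertile and squares for the low-fertile pools. Rows carry the gene and the position of the probe in its transcript and are sorted by fold change, with USP50 at the bottom; for probes not well above background on a low-fertile array the order among the falls is not firm.

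The USP class, cysteine peptidases and the largest family of deubiquitinases, showed 11 lower and 5 higher probes among 39 tested. On all 4 arrays 15 were measured, with 3 lower and 3 higher. The largest rise was that of USP50, a member regarded as lacking peptidase activity, with normalized log2 signals of 0.48 and 0.62 in high-fertile spermatozoa and 2.14 and 2.19 in low-fertile spermatozoa. It rose by 1.62 (standard error 0.15, adjusted p = 0.00275, limma), a 3.06-fold higher signal. The pools of each group lay close together and far from those of the other. USP50 passed in each of the fits with 1 pool left out, with log2 fold changes from 1.55 to 1.68. In the other direction the groups were apart for USP20 at position 227, with 2.23 and 1.88 against 0.64 and 0.60, and fell by 1.43 (standard error 0.18, adjusted p = 0.00494, limma). USP20 is a deubiquitinase of the beta-adrenergic receptor and of HIF1A. Its probes at 3578 and 4163 gave log2 fold changes of 0.37 and 0.33 and did not pass (adjusted p = 0.139 and 0.339), so the fall was read from the first of 3 probes only.

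USP11, an X-linked nuclear deubiquitinase of the DNA damage response, was read by 4 tested probes. At position 3278, the brightest, the signals were 1.97 and 1.92 in high-fertile and 0.81 and 0.82 in low-fertile spermatozoa, and fell by 1.13 (standard error 0.14, adjusted p = 0.00504, limma). At 2751 they were 0.94 and 0.63 against -0.40 and -0.76, and fell by 1.36 (adjusted p = 0.00772). Those neighbouring probes moved in the same direction. At 2045 the order was the opposite, with -0.54 and -0.98 against 0.24 and 0.15, and rose by 0.95 (standard error 0.19, adjusted p = 0.0197), and at 1525 the signals of 1.14 and 0.93 against 0.80 and 0.78 did not pass (-0.25, adjusted p = 0.274). The rise at 2045 was lost without high-fertile pool 2 (0.0828), low-fertile pool 1 (0.0570) or low-fertile pool 2 (0.0535), and the falls at 2751 and 3278 passed without any one pool. The GC content of the USP11 probes was 51.7% at 1525, 55% at 2045, 53.3% at 2751 and 45% at 3278. At 2751 low-fertile pool 2 was not well above background, and at 2045 high-fertile pool 2 was not.

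USP39, a spliceosome component of the USP family without deubiquitinating activity of its own, also split. At position 314 the signals were 1.62 and 1.47 against 2.26 and 2.34, and rose by 0.75 (standard error 0.15, adjusted p = 0.0178, limma), and at 1323 they were -0.18 and -0.07 against -0.77 and -1.03, and fell by 0.78 (standard error 0.16, adjusted p = 0.0217). The signs were opposite, and the probe at 1323 was one of those that entered by the high-fertile arrays only, with low-fertile pool 2 unmarked. Each missed the threshold without high-fertile pool 1 (0.0617 and 0.0748), high-fertile pool 2 (0.0976 and 0.106) or low-fertile pool 2 (0.0582 and 0.0695). USP42, a deubiquitinase expressed in mouse testis, rose at position 2696 from 0.90 and 1.01 to 1.45 and 1.63 (by 0.59, adjusted p = 0.0411) and at 3711 from -0.58 and -0.67 to 0.40 and -0.07 (by 0.79, adjusted p = 0.0373). At 1201 it gave 0.45 and -0.33 against -0.59 and -0.55 and did not pass (-0.63, adjusted p = 0.140). The call at 2696 was lost without any one of the pools, with adjusted p from 0.0552 without low-fertile pool 1 to 0.164 without high-fertile pool 1 (0.122 and 0.124 without the others), and that at 3711 without high-fertile pool 1 (0.110), high-fertile pool 2 (0.143) or low-fertile pool 1 (0.0826). Under spike-in scaling USP42 was lost at both positions (log2 fold change 0.21, adjusted p = 0.233, and 0.42, 0.229), as were the rises of USP39 at 314 (0.38, 0.0841) and USP11 at 2045 (0.58, 0.0896).

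**Figure D3:**
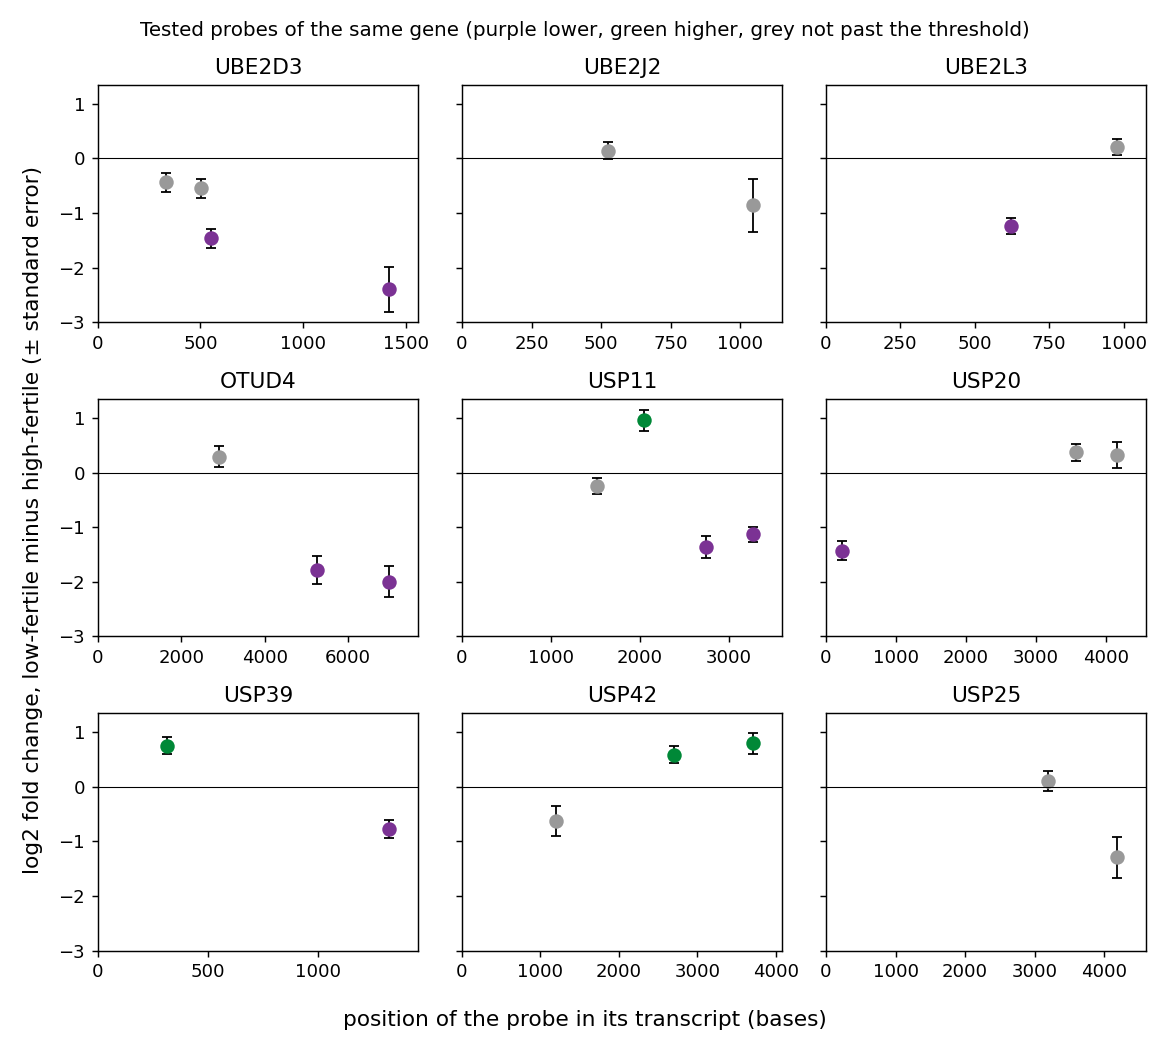
Log2 fold change (low-fertile minus high-fertile, bars for the standard error from limma) of the tested probes of 9 genes against the position of the probe in its transcript. UBE2D3 lies below 0 at all 4 positions, while USP11, USP39, UBE2J2, UBE2L3, OTUD4, USP20, USP42 and USP25 have probes on both sides of 0.

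Several other USP genes fell. USP14, which trims chains at the proteasome and whose loss in the ataxia mouse disturbs spermatogenesis, gave 0.84 and 0.80 in high-fertile and -0.95 and -0.65 in low-fertile spermatozoa, and fell by 1.62 (standard error 0.16, adjusted p = 0.00338, limma), or 3.07-fold. USP9X, the X-linked enzyme named after the fly gene fat facets, gave 1.54 and 1.24 against 0.39 and 0.13, and fell by 1.13 (standard error 0.18, adjusted p = 0.0103), which missed the threshold without high-fertile pool 1 (0.0533). Its Y-linked partner USP9Y carried the mark on no array. USP32, a membrane-associated member, gave 1.53 and 1.48 against 0.59 and 0.32 and fell by 1.05 (standard error 0.16, adjusted p = 0.00892). These genes had their pools well separated by group. Of them only USP32 was well above background on all 4 arrays, since low-fertile pool 2 lacked the mark for USP14 and USP9X, as it did for USP10, USP1 and USP13 below. USP10, which deubiquitinates p53, gave -0.25 and -0.07 against -1.02 and -0.89 and fell by 0.80 (adjusted p = 0.0171). USP1, the enzyme that strips ubiquitin from FANCD2 and PCNA, fell by 0.68 (adjusted p = 0.0452). Both were near the threshold. USP10 missed it without high-fertile pool 1 (0.0550), high-fertile pool 2 (0.0936) or low-fertile pool 1 (0.0501), and USP1 without any one pool (0.0857, 0.190, 0.123 and 0.0518). USP53 and USP13 fell outside the rule for named genes and were chosen after their values were seen. USP53, a member without catalytic activity in the early descriptions of the family, gave 0.70 and 0.97 against -1.27 and -1.47 (adjusted p = 0.00226, limma). Neither low-fertile array was well above background there, and the observed high-fertile mean was 4.62-fold higher. USP13 gave 0.96 and 1.22 against -0.04 and -0.09 and fell by 1.16 (adjusted p = 0.00669).

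Other bright or well-known USP genes did not pass. USP5, which takes apart free ubiquitin chains, gave 4.17 and 4.04 against 3.81 and 4.05 (log2 fold change -0.18, adjusted p = 0.449), with overlapping groups, and passed as lower under normexp (0.0138) and spike-in scaling (0.0359). USP22, the deubiquitinase of the SAGA complex, gave 1.28 and 1.53 against 1.51 and 1.61 (0.16, adjusted p = 0.497). USP25 gave 1.42 and 1.80 against 1.67 and 1.74 at position 3186 (0.10, adjusted p = 0.697), and its probe at 4188 was not well above background on either low-fertile array and did not pass (adjusted p = 0.0575). USP7, which stabilises MDM2, gave 0.39 and -0.06 against 0.00 and -0.58 (-0.45, adjusted p = 0.243). USP2, whose loss lowers fertility of male mice, gave -0.82 and -1.01 against -0.52 and -0.84 (0.23, adjusted p = 0.372). The groups overlapped for all of these but the USP25 probe at 4188. USP8, a deubiquitinase of endosomal sorting that has been described at the forming acrosome, was marked on no array at any of its probes, nor was USP26, an X-linked gene of the testis. The one tested probe of USP44, a mitotic checkpoint enzyme, gave -0.72 and -0.91 against -1.35 and -1.32, with no mark on a low-fertile array, and did not pass (adjusted p = 0.0543).

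Among the ubiquitin carboxy-terminal hydrolases, which release small adducts and ubiquitin precursors, 2 of 9 probes were tested. UCHL3 gave normalized log2 signals of 0.29 and -0.04 in high-fertile spermatozoa and -0.65 and -1.09 in low-fertile spermatozoa, and fell by 0.99 (standard error 0.22, adjusted p = 0.0254, limma). The groups did not overlap, and low-fertile pool 2 lacked the mark. With the percentile taken over probes marked on all arrays it did not pass (-0.95, adjusted p = 0.0604, limma). The call was lost without high-fertile pool 1 (0.110), high-fertile pool 2 (0.0550) or low-fertile pool 2 (0.0749). UCHL5 (UCH37), a proteasome-bound member, gave -0.53 and -0.57 against -0.68 and -1.12 and did not pass (-0.35, adjusted p = 0.228). UCHL1 (PGP9.5), abundant in neurons and spermatogonia, was not tested at any of its probes. Its brightest gave -0.47 and -0.97 against -0.72 and -0.18, well above background on 1 array of each group. The probe at position 1079 was marked on 1 low-fertile array, and its observed low-fertile mean was 2.48-fold higher.

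The OTU class, cysteine peptidases many of which prefer single chain types, showed 2 lower probes among 7 tested, both of OTUD4, a deubiquitinase of K48-linked chains that also binds RNA. At position 6987, where low-fertile pool 2 was not well above background, OTUD4 gave 1.29 and 1.42 in high-fertile spermatozoa and -0.22 and -1.05 in low-fertile spermatozoa, and fell by 1.99 (standard error 0.29, adjusted p = 0.00752, limma). At 5255 neither low-fertile array was well above background, and the observed high-fertile mean was 3.44-fold higher (adjusted p = 0.00732, limma). At 2902, nearer the start, the signals of -0.98 and -0.57 against -0.53 and -0.44 did not pass (0.29, adjusted p = 0.291). OTUD7B, which cuts K11-linked chains, was the only member of the class measured on all 4 arrays and gave 1.46 and 1.14 against 1.36 and 1.53 (0.14, adjusted p = 0.579). OTUB1, a K48-specific enzyme that also blocks E2 enzymes such as UBE2N, gave -0.15 and -1.57 against -0.21 and -0.09 (0.71, adjusted p = 0.284); it passed without high-fertile pool 1 (0.0223). OTUD5, a regulator of the innate immune response, gave 0.72 and 0.17 against 0.06 and 0.15 (-0.34, adjusted p = 0.286). OTUD1, OTUD3 and OTUD7A were not well above background on any array, and the probes of OTUB2 and OTUD6A were marked on too few arrays to be tested.

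Of 17 member genes with at least 2 tested probes, 12 (70.6%) had log2 fold changes of both signs, against 44.9% of 3129 such genes on the array. Several of the 12 turned on values near 0, such as those of USP36, UBE2U and UBE2O. Only USP11 and USP39 (11.8%) had probes called in both directions, against 2.40% of all such genes. Of those probes, USP11 at 2045 entered only by the low-fertile arrays, where it was high. USP11 at 2751 and USP39 at 1323 entered only by the high-fertile arrays, where they were high. The share is therefore not read as a result about the members. Among the 16 member transcripts with at least 2 tested probes, the probe nearest the end was lower than the first in 9 (56.2%), and among all 2876 such transcripts on the array in 57.5%. Whether the probes of a gene met different transcripts, or bound buffalo sequence unequally, was not tested.

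The direction also moved with the base composition of the probe. Over the 77 tested members Pearson's r between GC content and log2 fold change was 0.42, and over all tested probes it was 0.44; the probes share the same 4 arrays and are not independent. The median GC content was 41.7% for lower, 45% for uncalled and 55% for higher members. Below 40% GC, 8 of 18 members passed and all were lower, from 40% to 50% 11 of 45 were lower and 2 higher, and from 50% upwards 2 of 14 were lower and 5 higher. Over all tested probes the shares called lower were 49.96%, 20.9% and 2.97% in these bands and those called higher 3.82%, 5.25% and 15.6%. After the trend over all probes was removed from each array, 16 of the 28 calls held in the same direction and 27 kept their sign. USP50, USP20 at 227, USP14, USP13, USP53 and UBE2S held, as did USP11 at all 3 called positions, USP9X, USP10, USP39 at 314, USP42 at 3711 and UBE2D3 at 551. The calls lost were UBE2L3 (log2 fold change -0.32, adjusted p = 0.146), USP32 (-0.13, 0.586), UCHL3 (-0.68, 0.0800), UBE2E3 (0.50, 0.0554), UBE2F (-0.19, 0.656), UBE2D2 (-0.19, 0.458), OTUD4 at both positions (0.0578 and 0.0708), UBE2D3 at 1420 (0.0656), USP39 at 1323 (0.183) and USP42 at 2696 (0.119). USP1 changed sign (0.24). The part of base composition in the other differences was not tested.

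**Figure D4:**
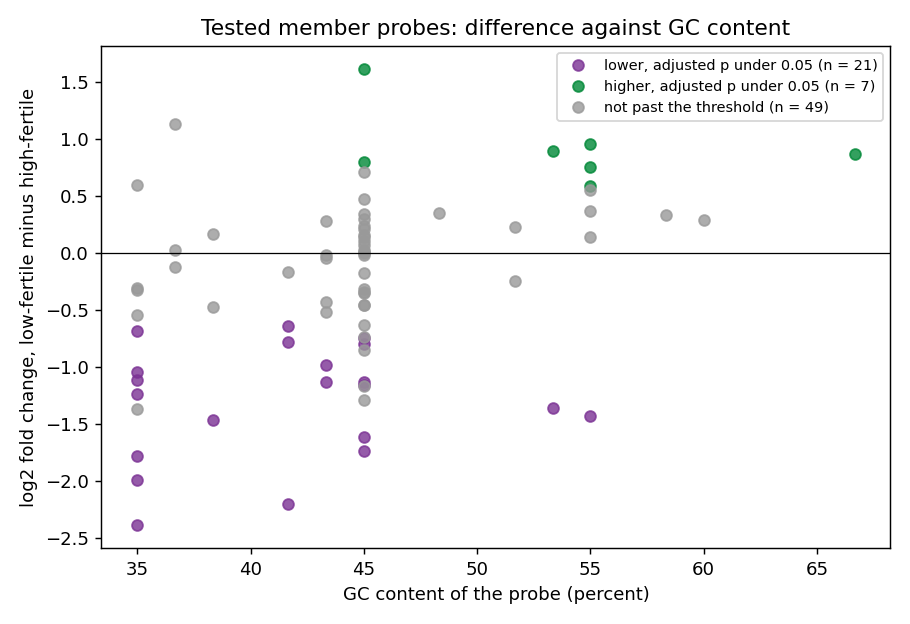
Log2 fold change (low-fertile minus high-fertile) of the 77 tested member probes against the GC content of the probe in percent, coloured by call. The 7 higher probes lie at 45% GC or above, and 19 of the 21 lower probes lie below 50%.

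The rest of the pathway was read from lists of E1 enzymes, ubiquitin and its relatives, other deubiquitinases and E3 partners, each gene by its brightest probe. Of 14 modifier genes, 13 were tested, with 6 lower and 1 higher, beside 16.3% and 9.6% of all genes. RPS27A, which encodes ubiquitin fused to a ribosomal protein, gave 4.38 and 4.59 against 3.04 and 3.09 and fell by 1.42 (standard error 0.15, adjusted p = 0.00381, limma). SUMO2 fell by 0.90 (adjusted p = 0.0211) and SUMO3 rose by 0.68 (0.0434). SUMO2 was lost without high-fertile pool 1 (0.0904) or 2 (0.0838) and after removal of the GC trend (-0.20, 0.456), and SUMO3 without any one pool (0.0623, 0.185, 0.0696 and 0.130) and under spike-in scaling (0.209). UBB, a polyubiquitin gene, and NEDD8 did not pass. Among 10 E1 genes 6 were tested. NAE1, a subunit of the NEDD8 E1, fell, with neither low-fertile array well above background (adjusted p = 0.0104, limma, and 0.0704 after removal of the GC trend). Its high-fertile mean was 4.28-fold higher by the rule given for UBE2F. MOCS3, an E1-like enzyme that activates URM1, rose by 1.20 (adjusted p = 0.0119), a call lost without high-fertile pool 2 (0.0574), under quantile scaling (0.0879) and under spike-in scaling (0.0558). UBA1, the main ubiquitin E1, gave 1.92 and 1.89 against 1.65 and 2.00 and did not pass (-0.08, adjusted p = 0.765). Of the other deubiquitinases 5 of 17 on the array were tested and 2 were lower, neither of them well above background on a low-fertile array. The observed high-fertile mean was 6.29-fold higher for STAMBPL1 (adjusted p = 0.00525, limma) and 2.55-fold higher for USPL1, a SUMO protease (adjusted p = 0.0318). USPL1 was lost without high-fertile pool 1 (0.118) or 2 (0.0870), after removal of the GC trend (0.205) and with the percentile taken over probes marked on all arrays (0.0744). Of the E3 partners 12 of 28 were tested and 4 passed, all lower. UBR1, the N-end rule ligase, fell by 1.63 (adjusted p = 0.00262), SKP1, the adaptor of SCF ligases, fell by 1.97 (0.00271), and CUL4B fell by 0.60 (0.0319). Both SKP1 and CUL4B were well above background on 1 low-fertile array only, so these sizes rest in part on a dim signal. SMURF2 was marked on no low-fertile array, and its observed high-fertile mean was 2.52-fold higher (adjusted p = 0.00387, limma). The call of CUL4B was lost without any one of the pools (0.134 and 0.117 without the high-fertile, 0.0594 and 0.0926 without the low-fertile pools).

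Markers of the labelled cells and of others were read beside these results. Of 22 sperm and spermatid genes 8 were tested and 1 was called, PRM1, which rose by 0.67 (adjusted p = 0.0231, limma). ACR, OAZ3, ODF1, TNP1 and CATSPER1 were well above background on all 4 arrays and did not pass. PRM2, TNP2, AKAP3, AKAP4, LDHC, PGK2 and CRISP2 were not well above background on both arrays of either group. PRM2 was marked in high-fertile pool 1 alone, at 2.29, and PRM3 in low-fertile pool 1 alone, at 2.18. Both readings enter the sums that follow. The summed linear level of the sperm list, in units of the 75th percentile, was 45.9 and 41.5 in high-fertile and 43.9 and 40.8 in the low-fertile pools. The leukocyte list, with 11 of 14 genes tested and PTPRC the one called (rose by 0.78, adjusted p = 0.0160), summed to 631 and 602 against 817 and 891. LYZ and PTPRC alone made up 560 and 527 against 749 and 827 of that sum, and the other 12 genes summed to 70.3 and 75.2 against 68.5 and 64.0. Epithelial genes summed to 28.7 and 29.5 against 30.6 and 34.3. KRT5, KRT8, KRT14, KRT18, KRT19 and CLDN4 were well above background on all 4 arrays and none was called. CDH1 and EPCAM were marked on no array. Red cell genes summed to 5.38 and 8.71 against 6.88 and 7.41. HBB was higher by 1.24 (adjusted p = 0.0118, limma), but it was marked on 1 high-fertile array only and entered by the low-fertile arrays. HBA, the brighter gene, did not pass (-0.17, adjusted p = 0.705). Testis somatic genes summed to 20.7 and 24.5 against 21.9 and 25.2, with STAR the one called (rose by 0.79, adjusted p = 0.0212). The calls of PRM1, PTPRC and STAR were each lost without high-fertile pool 1 (0.0960, 0.0763 and 0.0730), high-fertile pool 2 (0.107, 0.0771 and 0.105) or low-fertile pool 2 (0.0738, 0.0540 and 0.0684), and under spike-in scaling (0.113, 0.0558 and 0.0689). The part of other cells in the differences above was not tested.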

How the data were processed

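Sperm RNA of 4 pools was measured with a 1-colour Bos taurus array. The authors extracted images with Agilent Feature Extraction 11.5.1.1, per the submitters' processing notes, and deposited linear processed intensities, background-subtracted. Their deposited value table holds log2 intensities shifted by the 75th percentile of each array. A dim spot carries a surrogate value.

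Outlier spots were left out, log2 spots of a probe averaged and the array's 75th percentile over non-control probes subtracted, under Python 3.11.15 (pandas 2.3.3, scipy 1.17.1, numpy 2.4.6). That percentile was an intensity of 32.7 to 37.1. In limma 3.58.1 (R 4.3.3) 21033 probes were fitted, those marked well above background by the scanner software in both pools of a group, and the fit was tested on simulated data. The number of arrays limits precision. Alternatives covered scaling, background correction, filters, spots, probe GC content, a replicate block, single pools left out, the deposited table, an intensity trend and the methods' t-test.

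A gene was read from its brightest probe. Named genes were the 6 lower and 6 higher per UBE2 and USP class with the largest changes, past an adjusted p of 0.05, on all 4 arrays with pools apart; all UCHL and OTU genes; genes listed by role; the 5 brightest per UBE2 and USP class; genes with opposite calls; and genes whose pools of a group differed by over 2. The members, gene lists and tests were chosen with earlier results of these data known. Of 92 gene names, 91 are current RefSeq symbols and 1 is a synonym. Control spots were left out. Some genes that are counted are not reported here by name.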

Additional observations from a re-analysis of the deposited data

How the results depend on the processing

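Against 7 lower and 2 higher E2 probes and 14 lower and 5 higher deubiquitinase probes, removal of the GC trend gave 3, 6, 8 and 6. A fit of only the probes marked on all 4 arrays gave 2, 2, 4 and 3, fewer in part because fewer probes were tested. Spike-in scaling gave 14, 2, 20 and 1. With no filter on dim probes limma called 0 in each of these classes and directions, with 10, 4, 20 and 17 at an unadjusted p under 0.05, and the methods' t-test also called 0, with 5, 2, 13 and 4. With single pools left out, the counts ran from 4 to 7, 0 to 3, 9 to 14 and 1 to 3. The deposited table, quantile scaling, normexp, the other percentile, kept outlier spots, omitted bright patches and an intensity trend moved none of these counts by over 1.5 times.

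The pool numbers of the labels do not pair the pools, since the differences between pools 1 and 2 of both groups correlated at r = 0.0055 over 21024 probes. With the replicate block, 8 and 3 E2 probes and 15 and 4 deubiquitinase probes were lower and higher, and 26 of 28 calls held.

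Among the calls, USP50, USP53, USP13, USP14, USP20 at 227, USP11 at 2751 and 3278 and UBE2D3 at 551 were lost only with no filter or by the methods' t-test, apart from the gene median of USP20 given below. Of these only USP50, USP20 at 227 and USP11 at 3278 were in the fit of probes marked on all 4 arrays. The others entered by the high-fertile arrays only, so that fit could not assess them. Over all alternatives the adjusted p of USP50 ran from 0.000311 to 0.115. Signs turned as follows. Under spike-in scaling OTUD7B had a log2 fold change of -0.23, UBE2M -0.14, USP2 -0.14, USP22 -0.21 and USP25 -0.27. After removal of the GC trend OTUD7B had -0.070, UBE2D3 at 504 0.37, UBE2G1 0.28, UBE2N 0.61, USP1 0.24 and CUL4B 0.10. Under normexp USP2 had -0.0033 and USP25 -0.0080. With single pools left out OTUD7B ran from -0.017 to 0.30, UBE2G1 from -0.35 to 0.0049 and USP25 from -0.086 to 0.29. The median over all tested probes was 0.33 for USP20, -0.60 for USP25 and -0.013 for USP39. Apart from the share of probes tested, the cause was not tested. Low signal over background on low-fertile pool 2 limits what these arrays can show for the dim members.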
